A study of Danio rerio with 30 samples.

Results

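Propylparaben (PrP) was set against methylparaben (MtP) in whole zebrafish larvae at the lowest of 3 dose labels, BMD5/50. The comparison takes 6 of the 30 RNA-seq libraries of the series, 3 labelled PrP_BMD5/50 and 3 labelled MtP_BMD5/50, and sums transcript counts per gene. All larvae were of the AB wild-type strain and were collected at 120 hours post fertilization (hpf). The 3 Control libraries came from larvae of the same strain and age without a paraben and give the background level of each gene. The same compounds at BMD5/10 and BMD5, 12 libraries in all, serve as a further comparison for single genes. The series' title names developmental neurotoxicity as its subject, so nervous system genes are given early. BMD5 is not spelled out as a concentration in the sources used here, so BMD5/50 of PrP and BMD5/50 of MtP share a label and a divisor of 50, and their concentrations may differ.

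Parabens are esters of p-hydroxybenzoic acid used as preservatives, and MtP and PrP differ in their alkyl group, methyl against propyl. Carboxylesterases split them to p-hydroxybenzoic acid, and conjugating enzymes such as sulfotransferases and glucuronosyltransferases add groups that ease excretion. Both compounds are known as weak estrogen receptor ligands in cell assays. A larva at this age has a beating heart, swimming muscle, working photoreceptors, a growing lens and a digestive tract that is taking over from the yolk. Because whole bodies were used, fewer cells of a type and less RNA per cell cannot be told apart.

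No gene of the 18543 tested passed the test of a difference between PrP and MtP at BMD5/50. The count of genes with an adjusted p under 0.05 was 0 in edgeR's quasi-likelihood test (0.0%) and 0 in DESeq2, and 518 genes had an unadjusted p under 0.05 in edgeR (2.79%), 243 higher and 275 lower with PrP. If no gene differed, 927 of the 18543 would be expected under that threshold. DESeq2, run on 26679 genes without the low-count filter, gave 572 under the same unadjusted threshold. The 927 does not apply to that larger set. With the scaling changed from TMM to RLE the edgeR split was 287 higher and 210 lower, so the balance of directions depended on the scaling. The median 95% interval reached 0.526 log2 units to either side of the fitted difference, and 66% of genes had an interval wholly within 1 log2 unit of 0. For these genes a difference of 1 log2 unit lies outside the interval, while smaller differences may exist. Adding the replicate number to the edgeR model left the count at 0, with 1094 genes at an unadjusted p under 0.05 and a smallest adjusted p of 0.567. Unlike the 518 of the main fit, these 1094 were above the 927 expected if no gene differed. On which side of 927 the count fell thus depended on the model.

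Against Control, each compound at this label also had 0 genes past the adjusted threshold in edgeR and 0 in DESeq2. PrP had 291 genes at an unadjusted p under 0.05 (1.57%) in edgeR and 342 in DESeq2, which tested 26679 genes. MtP had 877 (4.73%) in edgeR and 912 in DESeq2. Both edgeR counts were under 927, the number expected if no gene differed. With the replicate block the edgeR counts were 618 for PrP and 1652 for MtP, the latter above 927. With libraries numbered 2 and 3 alone they were 549 and 2042 of 18855 genes tested. No gene passed adjustment in either fit. The comparisons share the Control libraries, so their counts are given side by side and are not independent of each other.

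The libraries also differed within each group, and values are therefore given by replicate number, in the order 1, 2, 3. Total counts were 10959701, 10978391 and 15420040 for PrP, 16957948, 16479556 and 14939499 for MtP, and 12735989 to 14621890 for Control. Mitochondrial transcripts took 9.118% of the counts in PrP replicate 1, the highest share of the 30 libraries, and 4.934% to 6.026% in the other 5 libraries compared. At the BMD5 label, PrP replicate 3 had 0.616% of its counts in ribosomal RNA, the highest share of the 30 libraries. Its top gene was zgc:158463, at 7.931% of counts. The part of that library's composition in the BMD5 values was not tested. On the leading principal component of all 30 libraries, PrP replicate 1 stood at −65.9 and MtP replicate 1 at −48.7, while PrP replicates 2 and 3 stood at 43.4 and 4.4 and MtP replicates 2 and 3 at 16.2 and 10.5. Libraries numbered 1 thus lay apart from the others in both groups. The log2 CPM difference between same-numbered libraries was over 1 for 412 genes and under −1 for 1075 in replicate 1. In replicate 2 the balance was the other way, with 1535 over 1 and 246 under −1. In replicate 3 the counts were 548 and 338.

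Since no gene passed, the genes named next are those with the smallest unadjusted p among genes with a mean of at least 5 CPM, 8 in each direction, and all 16 had an adjusted p of 1 in edgeR. CPM is the gene's share of the TMM-scaled library total in counts per 1000000. They were picked from this very comparison, so their values are a description and carry no test of their own. Libraries of the groups did not overlap for 15 of the 16. Over all genes tested, PrP lay wholly above MtP for 414 (2.23%) and wholly below for 619 (3.34%).

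The lower 8 included genes of protein handling, sugar metabolism and the extracellular matrix. The smallest p belonged to zgc:114181, a protein-coding gene on chromosome 16 with no descriptive name. It had 62.5, 98 and 83.7 CPM with PrP, 133, 149 and 118 with MtP and 111, 97.1 and 88.6 in Control. All MtP libraries lay above all Control libraries, and PrP overlapped Control. The log2 fold change of zgc:114181 was −0.71 ± 0.16 (SE), with an unadjusted p of 0.000137 in edgeR.

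The largest fold change of the 16 was that of crtac1a, which encodes cartilage acidic protein 1a, an extracellular matrix protein. Its values were 22.1, 18.9 and 14.4 CPM with PrP, 41.7, 34.2 and 37.6 with MtP and 37.9, 23.2 and 26 in Control. Every PrP library was below every MtP and every Control library, while MtP overlapped Control. The log2 fold change of crtac1a was −1.03 ± 0.25, with an unadjusted p of 0.000456 in edgeR and a range of −1.18 to −0.89 over the alternative settings. With the replicate block its adjusted p was 0.567, the smallest of that fit. The deposited table places crtac1a on chromosome 1 from 54934522 to 54947592, and r3hcc1l, another of the lower 8, on the opposite strand from 54948059 to 54958463, with 466 bases between them. The genome build was not given in the sources used here. r3hcc1l had 14.4, 11.5 and 11.3 CPM with PrP against 16.5, 19.4 and 15 with MtP, a log2 fold change of −0.45 ± 0.14.

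The retromer subunit gene vps26b, whose product helps to sort membrane proteins out of endosomes, had 6.5, 7.5 and 6.32 CPM with PrP and 11.3, 11.4 and 8.87 with MtP. Control libraries of vps26b had 9.26, 8.26 and 8.39 CPM, above every PrP library and overlapping MtP at its replicate 3, and the log2 fold change was −0.63 ± 0.15. For ddost, a subunit of the enzyme that attaches N-linked sugars in the endoplasmic reticulum, the values were 61.1, 61.4 and 54.9 CPM with PrP and 74.1, 81.9 and 67.9 with MtP. Control libraries of ddost lay between the groups, at 67.3, 63.0 and 62.1 CPM, with no overlap on either side. The co-chaperone gene dnajb6a had 31.3, 28.4 and 22.3 CPM with PrP and 38.5, 37.2 and 34.5 with MtP. Its log2 fold change was −0.43 ± 0.12. For taldo1, the transaldolase of the pentose phosphate pathway, PrP gave 29.2, 31.4 and 27.1 CPM and MtP 39.4, 37.9 and 41.9. Control values of taldo1 were 32.7, 28.8 and 26.3 CPM, close to PrP and below every MtP library. The secreted chaperone gene clu (clusterin) showed the same arrangement, with 43.6, 42.4 and 41.5 CPM with PrP, 53.4, 53.3 and 65.8 with MtP and 44.9, 35.7 and 47.5 in Control.

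Set beside Control, MtP stood apart for more of the lower 8 than PrP did. All MtP libraries lay above all Control libraries for 6 of the 8 genes (6.8% of all genes tested were so), and all PrP libraries lay below all Control libraries for 3 (2.36% of all genes). The 8 were picked for low PrP and high MtP values, which favours both arrangements, so these counts are a description. Among the higher 8, PrP lay wholly above Control for 2 genes (2.13% of all genes), txlng and prlra, and MtP lay wholly below Control for 0.

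The higher 8 ranged in log2 fold change from 0.39 to 0.52. The taxilin gene txlng, whose human product binds syntaxins, had 21.6, 18.0 and 19.9 CPM with PrP, 13.9, 14.8 and 16.8 with MtP and 14.9, 16.4 and 17.2 in Control. For prlra, the prolactin receptor gene, the libraries had 31.1, 26 and 25.6 CPM with PrP, 23.4, 18.5 and 19.4 with MtP and 22.2, 20.0 and 23.4 in Control. PrP was above both other groups in every library for txlng and prlra, with log2 fold changes against MtP of 0.39 ± 0.12 and 0.43 ± 0.14. The acyltransferase gene lclat1, which acts on cardiolipin precursors, had 20.8, 21.3 and 16.4 CPM with PrP and 15.3, 13 and 15.5 with MtP. The lysosomal channel gene mcoln1a had 16, 12.3 and 14.9 CPM with PrP and 10.1, 10.7 and 12.1 with MtP. In both genes the nearest PrP and MtP libraries were within 1 CPM of each other.

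A neural gene was among them, chl1a, a cell adhesion molecule of the L1 family that takes part in axon growth. It had 18.2, 16.3 and 17.5 CPM with PrP, 13.5, 12.1 and 11.4 with MtP and 13.3, 16.3 and 16.7 in Control. MtP was the lower group, but both compounds overlapped Control, MtP at its replicate 1. The log2 fold change of chl1a between compounds was 0.49 ± 0.17. The gene bcl2b, of the family that restrains apoptosis, had 27.1, 26.2 and 25.6 CPM with PrP and 20.6, 16 and 18.2 with MtP, but Control spanned both at 31.0, 17.9 and 19.1. The remaining higher genes were si:dkey-275b16.2, whose symbol joins gene IDs on chromosomes 12 and 13, and CABZ01102170.1, the only gene of the 16 whose groups overlapped. Their log2 fold changes were 0.4 ± 0.13 and 0.4 ± 0.14.

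**Figure D1:**
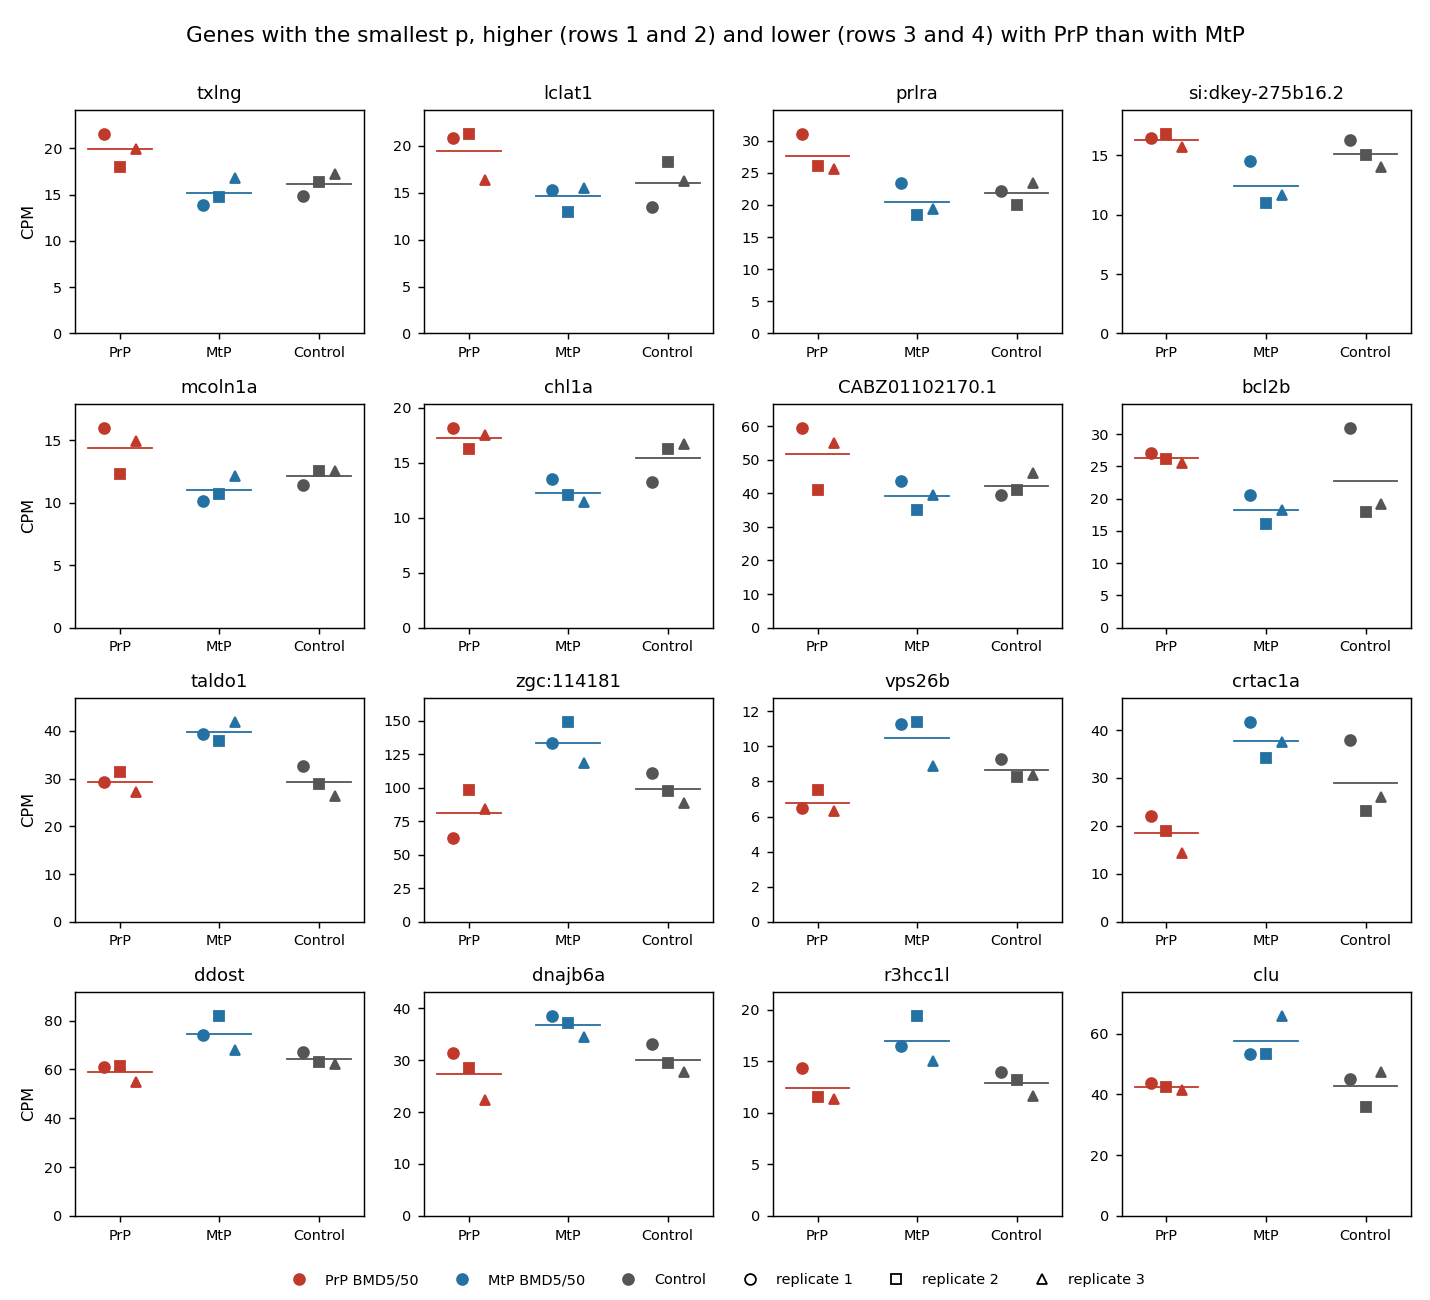
CPM of the 8 genes with the smallest p higher with PrP (upper 2 rows) and the 8 lower (lower 2 rows), in each library of PrP, MtP and Control, with symbols for the replicate number and a bar at the group mean. Groups do not overlap for 15 of the 16, and Control often lies with PrP in the lower 8, as for taldo1 and clu.

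The same genes were looked up at the other labels, in libraries outside the difference that picked them, though all 30 libraries shared the estimate of spread behind the p-values used in picking. Of the 8 lower genes, 8 were lower with PrP at BMD5/10 and 6 at BMD5, and of the 8 higher genes 7 and 6 were higher. Over all genes tested, the share that kept its direction was 60.8% and 57.1% for lower genes and 61.1% and 59.4% for higher ones. The differences were smaller at the other labels, with medians of −0.13 and −0.1 for the lower 8 against −0.45 at BMD5/50, and of 0.1 and 0.06 for the higher 8 against 0.41. None had an adjusted p under 0.05 in edgeR there (0 of 16 at each label), while 2 had an unadjusted p under 0.05 at BMD5/10, crtac1a and zgc:114181, and 1 at BMD5, crtac1a. Of all 18543 genes tested, 225 were under that unadjusted threshold at BMD5/10 and 446 at BMD5.

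The gene crtac1a was lower with PrP than with MtP in all 9 same-numbered pairs of the 3 labels. The 3 pairs at BMD5/50 belong to the comparison that picked crtac1a, so only those at BMD5/10 and BMD5 lie outside it. The same replicate numbers recur at each label, so the 9 pairs may not be separate observations. The share of all genes lower in all 9 pairs was not computed. Its log2 CPM differences were −0.91, −0.85 and −1.37 at BMD5/50, −0.6, −0.45 and −0.75 at BMD5/10 and −0.94, −0.38 and −0.96 at BMD5. The fitted log2 fold changes of crtac1a were −0.61 at BMD5/10 (unadjusted p of 0.0243 in edgeR) and −0.78 at BMD5 (unadjusted p of 0.00531). For comparison, zgc:114181 was at −0.34 at BMD5/10 and −0.02 at BMD5, and clu at −0.04 and 0.12. Whether the difference between compounds itself differed between BMD5/50 and BMD5 was tested over all genes, and 0 passed in edgeR (0.0%), with 236 at an unadjusted p under 0.05 (1.27%).

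**Figure D2:**
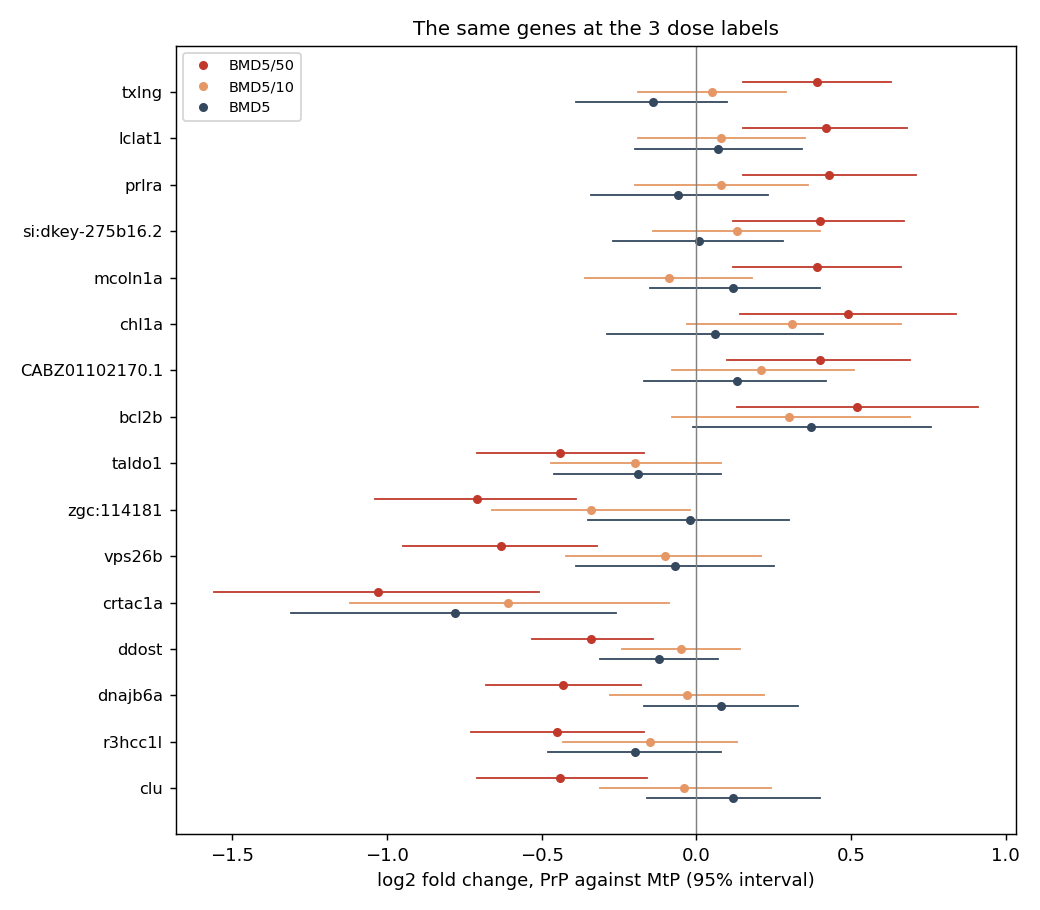
Fitted log2 fold change of PrP against MtP, with its 95% interval, for the same 16 genes at BMD5/50, BMD5/10 and BMD5. The interval of crtac1a stays below 0 at all 3 labels, while most other genes lie near 0 at BMD5/10 and BMD5.

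Nervous system genes showed no shared direction. Of 48 tested pan-neuronal, axonal and synaptic vesicle genes, 21 were above 0 and 27 below, with a median log2 fold change of −0.02 against 0.02 for all genes, and 54.0% of all genes above 0. Without PrP replicate 1, 9 of the 48 were above 0 and the median was −0.15. None of the 48 had an unadjusted p under 0.05 in edgeR (0 genes, against 2.79% of all genes). The mean log2 CPM of the list was 6.59, 6.32 and 6.3 with PrP, 6.65, 6.25 and 6.32 with MtP and 6.62, 6.37 and 6.27 in Control. Libraries numbered 1 were the highest in each group, and the spread between replicate numbers was larger than that between groups. The neuronal RNA-binding protein gene elavl3 had 72.7, 84.9 and 70.2 CPM with PrP against 94.8, 51.1 and 53.4 with MtP, with a 95% interval of −0.25 to 0.63 around a log2 fold change of 0.19. The neurofilament light chain gene nefla had the smallest p of the list, at 7.43, 8.54 and 7.49 CPM with PrP and 8.93, 10.7 and 9.46 with MtP. That difference, −0.31 ± 0.19, had an unadjusted p of 0.115 in edgeR. The next in order of p were syn2b, a synapsin of synaptic vesicles, at −0.26 ± 0.19, and nefmb, a medium neurofilament chain, at −0.27 ± 0.21.

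Transmitter genes gave 30 of 45 above 0 with a median of 0.06 (17 of 45 without PrP replicate 1). The number with an unadjusted p under 0.05 in edgeR was 0, against 2.79% of all genes. Acetylcholinesterase, ache, which ends cholinergic signalling, had 162, 201 and 170 CPM with PrP, 156, 180 and 179 with MtP and 164, 156 and 185 in Control. Its log2 fold change was 0.05 (95% interval −0.22 to 0.31), so a difference in ache of 1 log2 unit lies outside the interval. The GABA transporter gene slc6a1a had 3.13, 5.44 and 3.09 CPM with PrP and 3.95, 0.53 and 1.27 with MtP. MtP replicates 2 and 3 were the low ones, below all Control libraries at 5.54, 5.04 and 3.22 CPM, while MtP replicate 1 was not. The catecholamine-degrading enzyme gene comtb and the dopamine receptor gene drd4a had log2 fold changes of −0.34 ± 0.19 and 0.44 ± 0.26.

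Among genes of axon guidance, 22 of 32 were above 0, with a median of 0.09, and without MtP replicate 2 this was 16 of 32 with a median of 0.01. The mean difference over the list was −0.26 in replicate 1, 0.37 in replicate 2 and 0.21 in replicate 3, so the replicates disagreed in direction. The members with the smallest p were ntrk2b, a neurotrophin receptor counted at under 1 CPM in every library compared, slit2, a repulsive guidance ligand, and sema3fa, a semaphorin. slit2 had 50.9, 45.8 and 48.3 CPM with PrP and 48.2, 39.1 and 40.8 with MtP, a log2 fold change of 0.18 ± 0.13. sema3fa was at 0.14 ± 0.11.

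Of 28 glial and myelin genes 19 were below 0, with a median of −0.03, and this was 16 with RLE scaling or DESeq2 and 15 without PrP replicate 3. Of the members with the smallest p, her4.1 and plp1a were higher with PrP and glulb lower. The Notch target her4.1, a marker of radial glia in zebrafish, had 16.4, 14.7 and 15.5 CPM with PrP, 11.6, 10.5 and 11.3 with MtP and 11.3, 10.2 and 11.1 in Control. All PrP libraries were above all others while MtP and Control were nearly level. The log2 fold change of her4.1 was 0.48 ± 0.20, with an unadjusted p of 0.0269 and an adjusted p of 1 in edgeR. At BMD5 the difference was 0.44 and at BMD5/10 it was 0.07. her4.1 has near-identical tandem copies, and how reads were shared among them was not given in the sources used here. The myelin proteolipid gene plp1a had 9.8, 13.4 and 13.1 CPM with PrP and 9.74, 9.6 and 9.69 with MtP, a log2 fold change of 0.32 ± 0.16. In replicate 1 the values of plp1a were almost equal. Myelin basic protein, mbpa, had 41.3, 73.2 and 46.7 CPM with PrP against 43.3, 64.6 and 73.1 with MtP, and gfap, of the glial intermediate filament, had 95.7, 164 and 97.7 against 95.2, 137 and 170. Both overlapped widely, at −0.17 ± 0.31 each. The glutamine synthetase gene glulb was at −0.11 ± 0.09.

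Photoreceptor genes were divided, with 30 of 56 above 0 and a median of 0.02, and without PrP replicate 1 they gave 12 of 56 and a median of −0.29 (18 of 56 without MtP replicate 3). MtP lay wholly above Control for 18 of the 56 genes (6.8% of all genes) and PrP for 0 (2.13% of all genes). The median fitted difference from Control was similar, at 0.32 for MtP and 0.34 for PrP. Rhodopsin, rho, had 7080, 4670 and 4200 CPM with PrP and 6170, 6010 and 4770 with MtP, and a log2 fold change of −0.09 ± 0.22. The retinol dehydrogenase gene rdh8a and the retinoid isomerase gene rpe65a of the visual cycle were lower with PrP, at −0.48 ± 0.20 and −0.68 ± 0.34. rdh8a had 52.7, 33.7 and 35.5 CPM with PrP, 64.4, 58.4 and 47.0 with MtP and 41.1, 37.3 and 39.4 in Control, so MtP was the group above Control. The cone channel gene cnga3a went the other way, with 8.19, 3.38 and 7.77 CPM with PrP and 5.79, 0.795 and 1.86 with MtP. The log2 fold change of cnga3a was 1.17, 0.74 without MtP replicate 2 and 2.28 without MtP replicate 1. As for slc6a1a, the low libraries of cnga3a were MtP replicates 2 and 3, which also held the highest positions of the 30 libraries on the next principal component, 42.8 and 40.2.

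The proteasome, the complex that degrades ubiquitin-tagged proteins, gave the most uniform small difference among 32 gene lists by share of members on the same side. Of 34 tested subunit genes, 33 had a lower fitted value with PrP and 1 a higher one, with a median log2 fold change of −0.15. Unadjusted p was under 0.05 for 9, all lower (1.48% of all genes were lower at this threshold), and PrP lay wholly below MtP for 10 (3.34% of all genes). The value was lower with PrP in all 3 same-numbered pairs for 17 (12.1% of all genes were so). No subunit passed adjustment in edgeR (0 of 34). These genes are co-expressed and measured in the same 6 libraries, so the 34 are not separate observations. The mean log2 CPM of the list was 5.67, 5.77 and 5.6 with PrP, 5.76, 5.94 and 5.79 with MtP and 5.63, 5.67 and 5.65 in Control. PrP replicate 2 and MtP replicate 1 were nearly level, so the groups overlapped, while each same-numbered pair differed in the same direction, by −0.09, −0.17 and −0.19. All MtP libraries lay above all Control libraries in the list's mean, and for 17 of the 34 genes singly, against 6.8% of all genes. PrP did so for 2 of the 34, against 2.13% of all genes. The median fitted difference from Control was 0.19 for MtP and 0.04 for PrP.

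By subunit, psma8 of the 20S core's outer ring had 66.0, 71.2 and 69.3 CPM with PrP, 75.9, 91.9 and 84.5 with MtP and 66.9, 67.8 and 76.2 in Control, with a log2 fold change of −0.29 ± 0.10. The ubiquitin receptor subunit gene psmd4a of the regulatory particle had 33.1, 38.3 and 35.3 CPM with PrP and 40.7, 46.2 and 40.5 with MtP. The inner ring subunit gene psmb3 had 48.6, 47.5 and 44.1 CPM with PrP and 53.0, 60.5 and 50.8 with MtP. Without MtP replicate 2 psmb3 was at −0.15, against −0.23 with all libraries. The unadjusted p of psma8, psmd4a and psmb3 was 0.0109, 0.017 and 0.0244 in edgeR, and each PrP library was below each MtP library. The number of subunit genes with a lower fitted value was 28 to 34 when each library was left out in turn and 31 with libraries numbered 2 and 3 alone. At the other labels the medians were −0.06 at BMD5/10, with 30 of 34 lower, and −0.08 at BMD5, with 29 of 34 lower. The same-numbered pairs did not share a direction there, at −0.18, 0.07 and −0.12 at BMD5/10 and −0.09, 0.10 and −0.23 at BMD5, with replicate 2 higher with PrP at both labels.

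Lens genes had the widest shared difference in the lower direction. Crystallins fill the lens fibre cells and give the lens its refractive power. Of 25 tested lens genes, 24 had a lower fitted value with PrP, with a median log2 fold change of −0.48. Unadjusted p was under 0.05 for 10 (1.48% of all genes were lower at this threshold), PrP lay wholly below MtP for 13 (3.34% of all genes), and 0 passed adjustment in edgeR. The list's mean log2 CPM was 4.92, 6.12 and 5.77 with PrP, 6.07, 6.24 and 6.21 with MtP and 5.5, 5.63 and 6.24 in Control. PrP replicate 1 was the lowest library of the 9 and Control itself spread from near PrP to the level of MtP. The same-numbered differences were −1.15, −0.12 and −0.44, with the largest in replicate 1, whose PrP library had the high mitochondrial share. Without that library the median was −0.25, and 21 of 25 genes were lower. With libraries numbered 2 and 3 alone, the median was also −0.25 and 23 were lower.

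The beta crystallin genes cryba2a, cryba2b and cryba4 had the smallest p of the lens list. cryba2a had 469, 978 and 1030 CPM with PrP, 1300, 1200 and 1160 with MtP and 932, 977 and 1370 in Control. cryba2b had 380, 991 and 805 CPM with PrP and 1230, 1150 and 1070 with MtP, and cryba4 had 943, 1910 and 1980 against 2480, 2370 and 2190. In all 3 genes PrP replicate 1 was far below the other PrP libraries, and both compounds overlapped Control. The log2 fold changes were −0.56 ± 0.23, −0.66 ± 0.27 and −0.54 ± 0.23, each with an adjusted p of 1 in edgeR, and −0.27, −0.35 and −0.27 without PrP replicate 1. At the other labels lens genes were higher with PrP, with medians of 0.27 at BMD5/10 (24 of 25 above 0) and 0.37 at BMD5 (22 of 25 above 0). The same-numbered differences were 0.68, −0.09 and 0.17 at BMD5/10 and 0.30, 0.09 and 0.80 at BMD5. The 0.80 involves PrP replicate 3 of BMD5, the library with the high ribosomal RNA share. The difference of cryba2b between BMD5/50 and BMD5 was −1.03 on the log2 scale, with an unadjusted p of 0.014 and an adjusted p of 1 in edgeR. The direction of the lens difference thus did not carry over between labels.

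**Figure D3:**
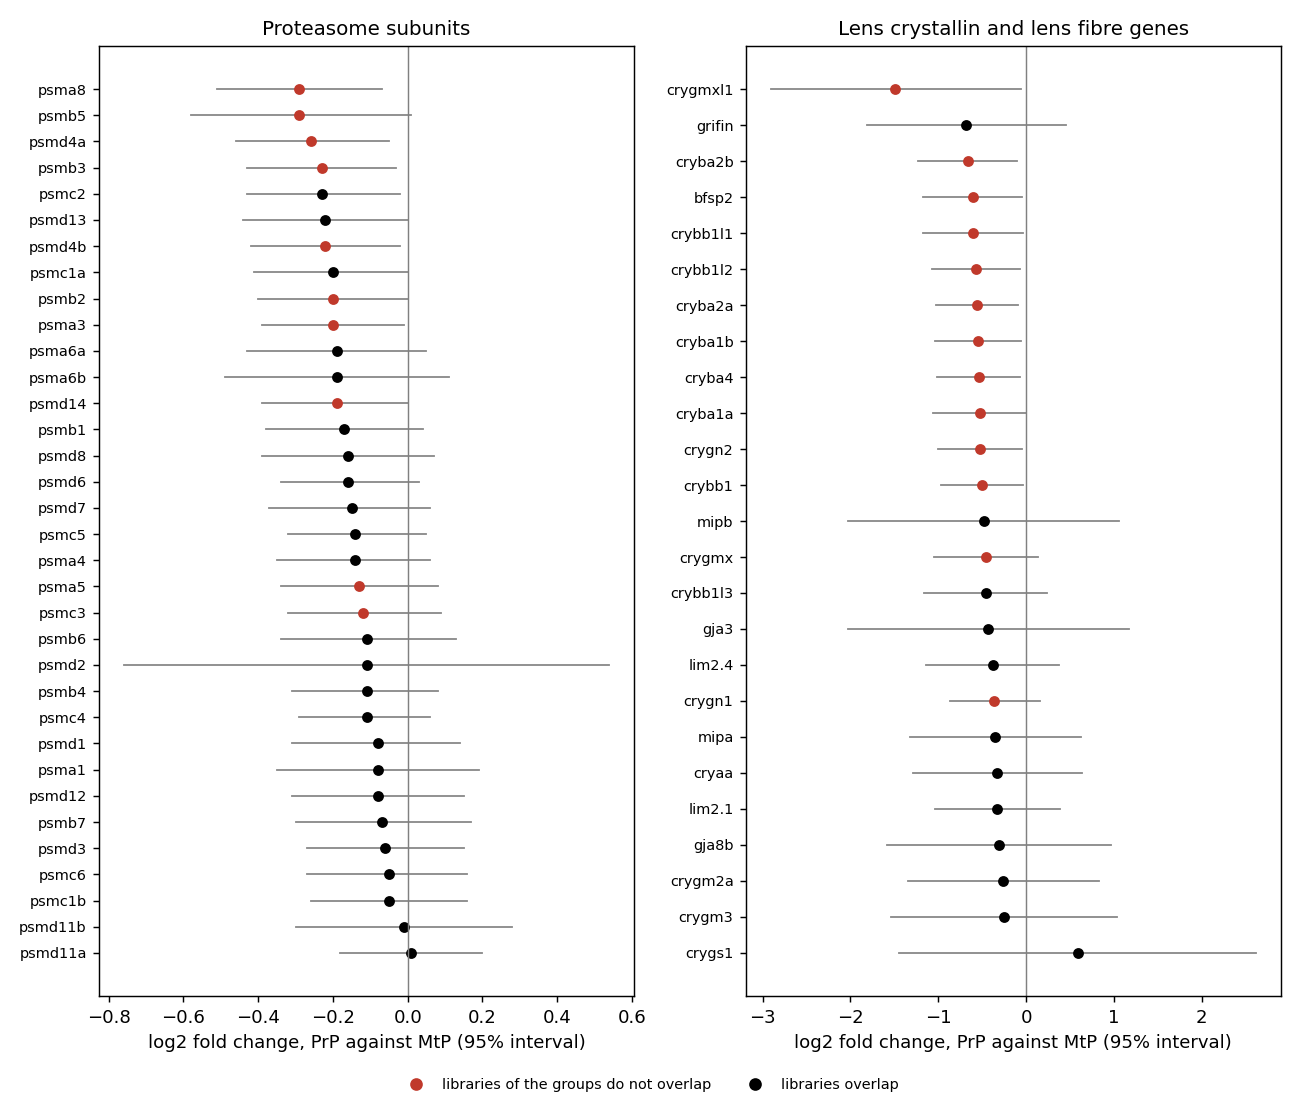
Fitted log2 fold change of PrP against MtP at BMD5/50 with its 95% interval for the 34 proteasome genes (left) and the 25 lens genes (right), on separate axes. Points in red are genes whose PrP and MtP libraries do not overlap, 10 on the left and 13 on the right, and 1 gene on each side lies above 0.

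Growth and energy genes mostly had slightly lower fitted values with PrP, though no such list was lower in all 3 same-numbered pairs. For the cell cycle list, 58 of 71 genes were below 0 with a median of −0.10, and PrP lay wholly below MtP for 9 (3.34% of all genes). The replication licensing genes cdt1 and cdc6 had 4.39, 3.75 and 4.54 CPM and 8.11, 6.66 and 6.94 CPM with PrP, against 5.57, 4.97 and 6.71 and 10.1, 9.21 and 9.32 with MtP. Their log2 fold changes were −0.44 ± 0.18 and −0.40 ± 0.17, and the spindle checkpoint kinase gene bub1ba was at −0.47 ± 0.22. The list's differences by replicate were −0.20, −0.23 and 0.10, so replicate 3 did not share the direction. The number of genes below 0 was 49 to 65 of 71 when each library was left out in turn. With libraries numbered 2 and 3 alone it was 44 of 71. Against Control, MtP lay wholly above for 14 of the 71 genes (6.8% of all genes) and PrP wholly below for 5 (2.36% of all genes).

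Respiratory chain genes were below 0 for 58 of 74, with a median of −0.08. The complex I subunit gene ndufv1 had 178, 174 and 158 CPM with PrP, 210, 215 and 218 with MtP and 179, 157 and 177 in Control. Its log2 fold change was −0.34 ± 0.15 with an unadjusted p of 0.0372 in edgeR, and MtP was the group above Control. The succinate dehydrogenase gene sdha was at −0.45 ± 0.22 and the complex I gene ndufb2 at −0.19 ± 0.12. The list's differences by replicate were 0.20, −0.23 and −0.19, so replicate 1 was opposite to the others. The list joins genes of the mitochondrial and the nuclear genome. Mitochondrial transcripts took 9.118% of counts in PrP replicate 1 against 6.026% in MtP replicate 1, and their part in the replicate 1 difference was not tested. The median ran from −0.23 without MtP replicate 1 to −0.01 without MtP replicate 2. Ribosomal protein genes were below 0 for 75 of 82, with a median of −0.08. Their differences by replicate were 0.04, −0.24 and 0.0, so only replicate 2 was lower with PrP. Leaving out 1 library moved the count below 0, to 25 without PrP replicate 1, to 36 without MtP replicate 2 and to 48 without MtP replicate 3. The members with the smallest p, rps15, rpl29 and rpl19, were at −0.19 ± 0.19, −0.16 ± 0.16 and −0.18 ± 0.19.

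Stress gene lists had small median differences, while single members varied more. Of 33 antioxidant genes 22 were below 0, with a median of −0.10, and the 3 at an unadjusted p under 0.05 were taldo1, prdx1 and gclc, all lower (1.48% of all genes were lower at this threshold). Without MtP replicate 2 the list gave 17 of 33 below 0 and a median of 0.0. The peroxiredoxin gene prdx1 had 9.46, 9.57 and 8.66 CPM with PrP, 15.5, 14.4 and 12 with MtP and 15.8, 7.68 and 9.1 in Control. For gclc, the catalytic subunit gene of glutathione synthesis, the libraries had 28.6, 29.7 and 27.7 CPM with PrP and 40.4, 30.5 and 33.0 with MtP. The log2 fold changes were −0.60 ± 0.24 and −0.27 ± 0.12, the latter at −0.16 without MtP replicate 1, and Control of prdx1 spanned both groups. Heat shock and unfolded protein genes gave 39 of 51 below 0 and a median of −0.11, or 28 of 51 and −0.04 without PrP replicate 1. The inducible chaperone gene hsp70.3 had 16.4, 13.4 and 21.2 CPM with PrP and 39.0, 16.8 and 19.1 with MtP, with a 95% interval of −1.98 to 0.88. Of the list's members with the smallest p, calr3b was at 0.46 ± 0.26, hspe1 at −0.29 ± 0.21 and hspb1 at −0.43 ± 0.33.

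Genes of paraben breakdown and conjugation showed no shared direction. In the list of xenobiotic metabolism 46 of 81 genes were above 0, with a median of 0.05. At an unadjusted p under 0.05 in edgeR there were 0 genes, against 2.79% of all genes. Without PrP replicate 2, 14 of 81 were above 0 with a median of −0.28, and without MtP replicate 1, 29 of 81 with a median of −0.12. The carboxylesterase gene ces2a had 6.08, 93.1 and 25.9 CPM with PrP and 19.9, 54.8 and 47.0 with MtP. Its order between compounds turned with the replicate, and its 95% interval, −1.98 to 2.06, leaves a wide range of differences. The esterase genes ces2b and ces3 had intervals of −0.89 to 1.25 and −1.7 to 2.56. The sulfotransferase gene sult1st1 had 3.38, 9.19 and 6.94 CPM with PrP and 4.54, 7.62 and 8.64 with MtP, and the glucuronosyltransferase gene ugt1a1 had 6.42, 28.0 and 12.5 against 4.22, 11.5 and 11.5. For ugt1a1 the fitted difference was 0.79, and its 95% interval ran from −0.65 to 2.24. The aryl hydrocarbon receptor target cyp1a had 2.53, 6.38 and 3.99 CPM with PrP and 3.08, 5.1 and 3.73 with MtP. The smallest p of the list belonged to cyp2ad3 (−0.26 ± 0.13) and to the epoxide hydrolase gene ephx1 (−0.55 ± 0.29), followed by nr1i2, the xenobiotic-sensing pregnane X receptor, counted at under 2 CPM and at 1.22 ± 0.75.

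Estrogen response could hardly be read. The brain aromatase gene cyp19a1b had 101 counts over all 30 libraries and the vitellogenin gene vtg1 had 19, so neither was tested, and 8 of the 26 genes of the list had enough counts. Their median was 0.08, and those with the smallest p were the vitellogenin gene vtg3 (0.81 ± 0.55), nots (0.71 ± 0.48) and the estrogen receptor gene esr2b (0.44 ± 0.49). Thyroid hormone genes gave 10 of 12 above 0 with a median of 0.24, but the differences by replicate were −0.19, 0.42 and 0.61, and the median was 0.09 without MtP replicate 3 (8 of 12 above 0) and 0.43 without MtP replicate 1. The receptor genes thrb and thraa were at 0.44 ± 0.26 and 0.24 ± 0.27. The transcription factor gene klf9, which responds to thyroid hormone and glucocorticoid, had 2.03, 11.1 and 4.67 CPM with PrP, 2.92, 1.92 and 1.64 with MtP and 10.3, 9.01 and 6.43 in Control. MtP was wholly below Control, and PrP overlapped both. For klf9 the fitted difference was 1.43, and its 95% interval ran from 0.01 to 2.85, while without PrP replicate 2 the difference of klf9 was 0.64. Glucocorticoid genes as a list gave 17 of 25 above 0 with a median of 0.17, or 10 of 25 and −0.18 without PrP replicate 2 and 14 of 25 and 0.02 without MtP replicate 3. Another glucocorticoid target, fkbp5, had 65.8, 97.4 and 110 CPM with PrP and 68.2, 62.8 and 27.4 with MtP, and dusp1 was at −0.34 ± 0.20.

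Circadian clock genes gave 30 of 40 above 0 with a median of 0.23. The list's mean log2 CPM was 5.13, 4.69 and 4.79 with PrP, 5.2, 4.23 and 4.36 with MtP and 5.2, 4.88 and 4.74 in Control. Same-numbered differences were −0.07, 0.46 and 0.44, and the low libraries were again MtP replicates 2 and 3. The circadian median was 0.04 without PrP replicate 1 and 0.5 without MtP replicate 1. The clock repressor gene per1b had 82.3, 32.9 and 84.7 CPM with PrP and 65.1, 22.2 and 38.5 with MtP, which fitted as 0.67 on the log2 scale (95% interval −0.35 to 1.69). The output gene ciartb had 1.1, 1.59 and 1.03 CPM with PrP and 1.3, 0.0662 and 0.149 with MtP. The clock-controlled transcription factor gene dbpb and the photolyase gene cry5 were at 0.77 ± 0.47 and −0.94 ± 0.59. The hour of collection within the day was not given in the sources used here, and its part in these values was not tested.

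**Figure D4:**
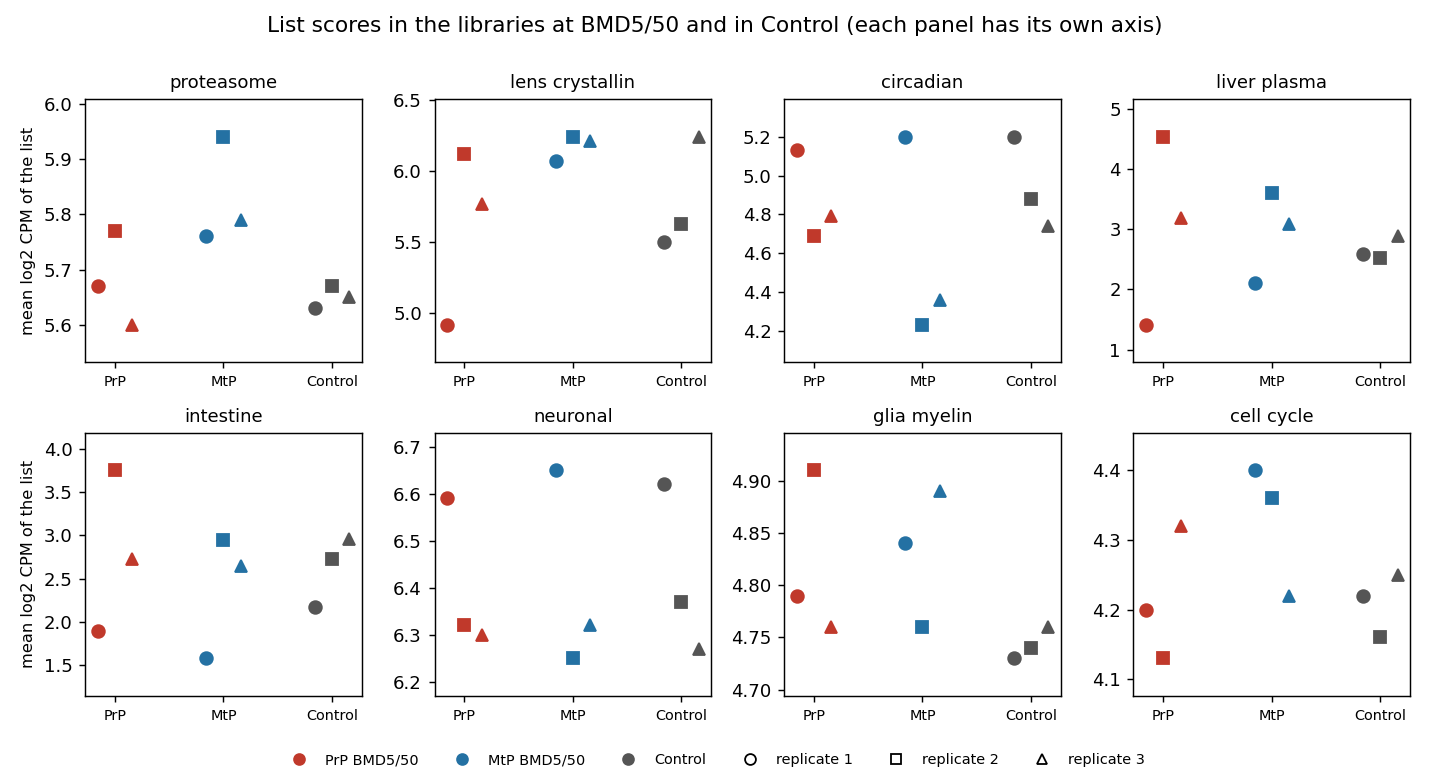
Mean log2 CPM of 8 gene lists in each library of PrP and MtP at BMD5/50 and of Control, with symbols for the replicate number and an axis for each panel. The proteasome panel shows MtP above Control, the lens panel a low PrP replicate 1, the circadian panel low MtP replicates 2 and 3, and the liver and intestine panels a high PrP replicate 2.

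Liver and intestine genes had the largest fitted medians of the 32 lists, and these rested on PrP replicate 2. Liver secretory genes gave 55 of 61 above 0 with a median of 0.57. The list's mean log2 CPM was 1.41, 4.53 and 3.18 with PrP, 2.1, 3.59 and 3.09 with MtP and 2.58, 2.52 and 2.89 in Control. Differences by replicate were −0.69, 0.95 and 0.09, and without PrP replicate 2 the median turned to −0.49, with 59 of 61 below 0. The liver fatty acid carrier fabp10a shows the pattern, at 18.4, 291 and 146 CPM with PrP and 42.4, 186 and 99.6 with MtP. The list's members with the smallest p included the clotting factor gene f9b, at under 2 CPM in every library compared, and the phenylalanine hydroxylase gene pah, which had a fitted value of −0.40 ± 0.25. The apolipoprotein B gene apoba had 0.676, 14.4 and 5.43 CPM with PrP and 1.19, 5.37 and 3.35 with MtP. Liver genes were mostly higher with PrP at the other labels too. The list's medians were 0.5 at BMD5/10 (57 of 61 above 0) and 1.14 at BMD5 (61 of 61). Its same-numbered differences were −0.67, 0.69 and 0.65 at BMD5/10 and −0.13, 0.87 and 1.38 at BMD5, with replicate 1 lower at both.

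Intestinal genes gave 38 of 40 above 0 with a median of 0.55, and their replicates at least shared a sign, at 0.30, 0.81 and 0.09. Without PrP replicate 2 the median was −0.16, with 26 of 40 below 0, and without MtP replicate 1 it was 0.22. The intestinal median was 0.06 at BMD5/10 (25 of 40 above 0) and 0.82 at BMD5 (31 of 40). Same-numbered differences of the list were −0.75, −0.01 and 0.53 at BMD5/10 and 0.66, 0.65 and 0.87 at BMD5. The enterocyte fatty acid carrier fabp2 had 20.9, 235 and 57.1 CPM with PrP and 18.7, 128 and 54.2 with MtP. The intestinal alkaline phosphatase gene alpi.2 was at 1.08 ± 0.90, and the other members with the smallest p, chia.3 and slc26a3.1, were counted at under 2 CPM. Pancreatic enzyme genes gave 22 of 26 above 0 with a median of 0.20, turning to −1.7 without PrP replicate 2, with 24 of 26 below 0. With the replicate block the median was −0.23, and without MtP replicate 1 or MtP replicate 3 it was −0.06. The pancreatic median was 0.04 at BMD5/10 (16 of 26 above 0) and 1.39 at BMD5 (26 of 26). At BMD5 the pairs disagreed, at −1.04, 0.08 and 2.52. Trypsin, prss1, had 28.7, 291 and 31.4 CPM with PrP and 54.4, 183 and 53.2 with MtP. The carboxypeptidase gene cpa4 had 1.44, 8.35 and 1.51 CPM with PrP and 1.62, 4.11 and 1.49 with MtP. The elastase genes cela1.4, under 1 CPM in every library compared, and cela1.5 were at −0.80 ± 1.43 and 0.61 ± 1.22. In both compounds replicate 2 was the high library for prss1 and cpa4, and the 95% interval of prss1 ran from −2.5 to 3.05.

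Skin and muscle genes also varied with the replicate number. The epidermal list had 40 of 51 above 0 with a median of 0.13, but this was 14 of 51 without MtP replicate 1 and 18 of 51 without either PrP replicate 2 or PrP replicate 3. Its keratin krt4 had 1380, 3580 and 3240 CPM with PrP and 1280, 2890 and 3030 with MtP. The desmosomal genes dspb and pkp3a and the cornified envelope gene evpla had the smallest p of the list, at 1.07 ± 0.74 for dspb, 0.83 ± 0.58 for pkp3a and 0.96 ± 0.70 for evpla. Leaving out 1 library each, these ran from 0.25 (without PrP replicate 2) to 1.57 for dspb, from 0.41 (without PrP replicate 3) to 1.25 for pkp3a and from 0.59 (without MtP replicate 1) to 1.4 for evpla. Skeletal muscle genes were below 0 for 53 of 72 with a median of −0.08, which became 6 of 72 and 0.18 without PrP replicate 1 and 70 of 72 and −0.36 without PrP replicate 2. Without MtP replicate 2 or MtP replicate 3 the counts were 25 and 20. Myoglobin, mb, was at −0.64 ± 0.40, the creatine kinase gene ckmt2a at −0.27 ± 0.28, and the troponin gene tnnt2c, under 2 CPM, at −0.62 ± 0.57. The fast muscle light chain mylpfa had 7350, 13600 and 12300 CPM with PrP and 5900, 14400 and 14200 with MtP. Replicate 1 was the low library of both compounds in krt4 and mylpfa, as in Control. Heart genes gave 12 of 17 above 0 with a median of 0.23, or 3 of 17 and −0.34 without PrP replicate 2 and 8 of 17 without MtP replicate 1. In that list the natriuretic peptide gene nppa had the largest fold change of any gene named, 3.31 ± 1.62, and it rested on 3.47 CPM in PrP replicate 2 against 0.0 and 0.137 in the other PrP libraries. The heart light chain gene myl7 had 0.845, 13.4 and 1.37 CPM with PrP and 0.433, 2.58 and 1.27 with MtP. The troponin gene tnnc1a, under 2 CPM in every library compared, was at 1.95 ± 1.41.

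The direction of several further tissue lists turned with the library left out. Cartilage and collagen genes were below 0 for 34 of 46 with a median of −0.05, with 4 of 46 below 0 without PrP replicate 1, 13 without MtP replicate 2 and 9 without MtP replicate 3. Their members with the smallest p were the basement membrane collagen genes col4a2 and col4a1 and the chondrocyte transcription factor gene sox9a, at 1.42 ± 0.89, 0.66 ± 1.01 and 0.84 ± 0.56. Of these, col4a1 and sox9a were under 2 CPM in every library compared. Red cell genes gave 17 of 21 above 0 with a median of 0.14, but 3 of 21 without MtP replicate 1, 5 of 21 without PrP replicate 2 and 10 of 21 with libraries numbered 2 and 3 alone. The heme synthesis gene urod, the globin gene hbae5 and the erythroid transcription factor gene gata1a, the last under 2 CPM, were at −0.53 ± 0.39, 0.60 ± 0.66 and 0.65 ± 0.91. The median of pigment cell genes did not turn with a library left out. They gave 19 of 27 below 0 (16 with RLE scaling) with a median of −0.11, which ran from −0.18 to −0.07 with a library left out. Differences by replicate were −0.14, 0.13 and −0.13, so replicate 2 did not share the direction. The melanocyte transcription factor gene mitfa and the melanin enzyme gene dct were at −0.52 ± 0.28 and −0.32 ± 0.19, and the purine enzyme gene pnp5a at 1.05 ± 0.52. Islet genes gave 14 of 20 below 0 with a median of −0.11, or 10 of 20 without either MtP replicate 1 or PrP replicate 2. The urocortin gene ucn3l, at −0.91 ± 0.50, had no overlap between compounds, while the potassium channel gene kcnj11 and the zinc transporter gene slc30a8 were at −0.45 ± 0.39 and 0.51 ± 0.46. Both ucn3l and slc30a8 were counted at under 2 CPM in every library compared. Macrophage, microglia and neutrophil genes gave 13 of 20 above 0 with a median of 0.14, or 8 of 20 without either PrP replicate 2 or PrP replicate 3. The granulin gene grn2, the collagenase gene mmp13a and the myeloid transcription factor gene spi1b were at 0.48 ± 0.47, −0.43 ± 0.57 and 0.29 ± 0.39. Counts of mmp13a and spi1b were under 2 CPM in every library compared.

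Inflammation genes were divided, with 16 of 29 above 0 and a median of 0.02, or 10 of 29 without MtP replicate 1 or PrP replicate 3. The tandem prostaglandin D2 synthase genes ptgdsb.1 and ptgdsb.2 had the smallest p of the list after stat3, and as near copies they may share reads. ptgdsb.1 had 190, 143 and 123 CPM with PrP, 294, 215 and 253 with MtP and 359, 130 and 189 in Control. PrP lay wholly below MtP while Control spanned both, and the log2 fold change of ptgdsb.1 was −0.74 ± 0.40. ptgdsb.2 had 109, 83.9 and 63.3 CPM with PrP and 140, 127 and 92.7 with MtP, lower with PrP in each same-numbered pair though the groups overlapped. Its log2 fold change was −0.49 ± 0.25, with an unadjusted p of 0.0593 in edgeR, and with the replicate block the unadjusted p of ptgdsb.2 was 0.000415 and the adjusted p 0.84. The cytokine gene il1b had 1.01, 0.75 and 1.51 CPM with PrP and 1.08, 0.795 and 1.49 with MtP. The signal transducer gene stat3 had 1.01, 3.94 and 1.03 CPM with PrP and 1.35, 0.662 and 0.745 with MtP, with an unadjusted p of 0.0242 and an adjusted p of 1 in edgeR. The log2 fold change of stat3 was 1.07 with all libraries and 0.14 without PrP replicate 2. Of 36 immediate early genes 17 were above 0, or 24 without MtP replicate 1, and nr4a3 was at 0.74 ± 0.39 and jund at 0.44 ± 0.26. Sterol synthesis genes gave 18 of 30 above 0 with a median of 0.04, or 12 of 30 without either PrP replicate 2 (median −0.14) or MtP replicate 3 (median −0.05). Of their members with the smallest p, hsd17b7 was at −0.35 ± 0.16, fdps at −0.17 ± 0.09 and tm7sf2 at 0.24 ± 0.16. Genes of fatty acid oxidation, synthesis and storage gave 30 of 48 below 0 with a median of −0.07. This became 40 of 48 and −0.25 without PrP replicate 2, and 24 of 48 without MtP replicate 2. In this list fabp11a was at −0.34 ± 0.13, cyp4t8 at −0.54 ± 0.26 and etfa at −0.29 ± 0.17.

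Across the 32 lists, 3 had a mean that differed in the same direction in all 3 same-numbered pairs, those of proteasome, lens and intestine genes. For comparison, of the 18543 genes tested, 2229 were higher and 2237 lower with PrP in all 3 pairs. The lists are means over genes that may move together, and some lists share genes. The rate of single genes is thus not the rate expected for lists, which was not computed. The count of 3 lists is a description only. A single pair of compounds was compared at this label, so adjustment was over genes only.

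**Figure D5:**
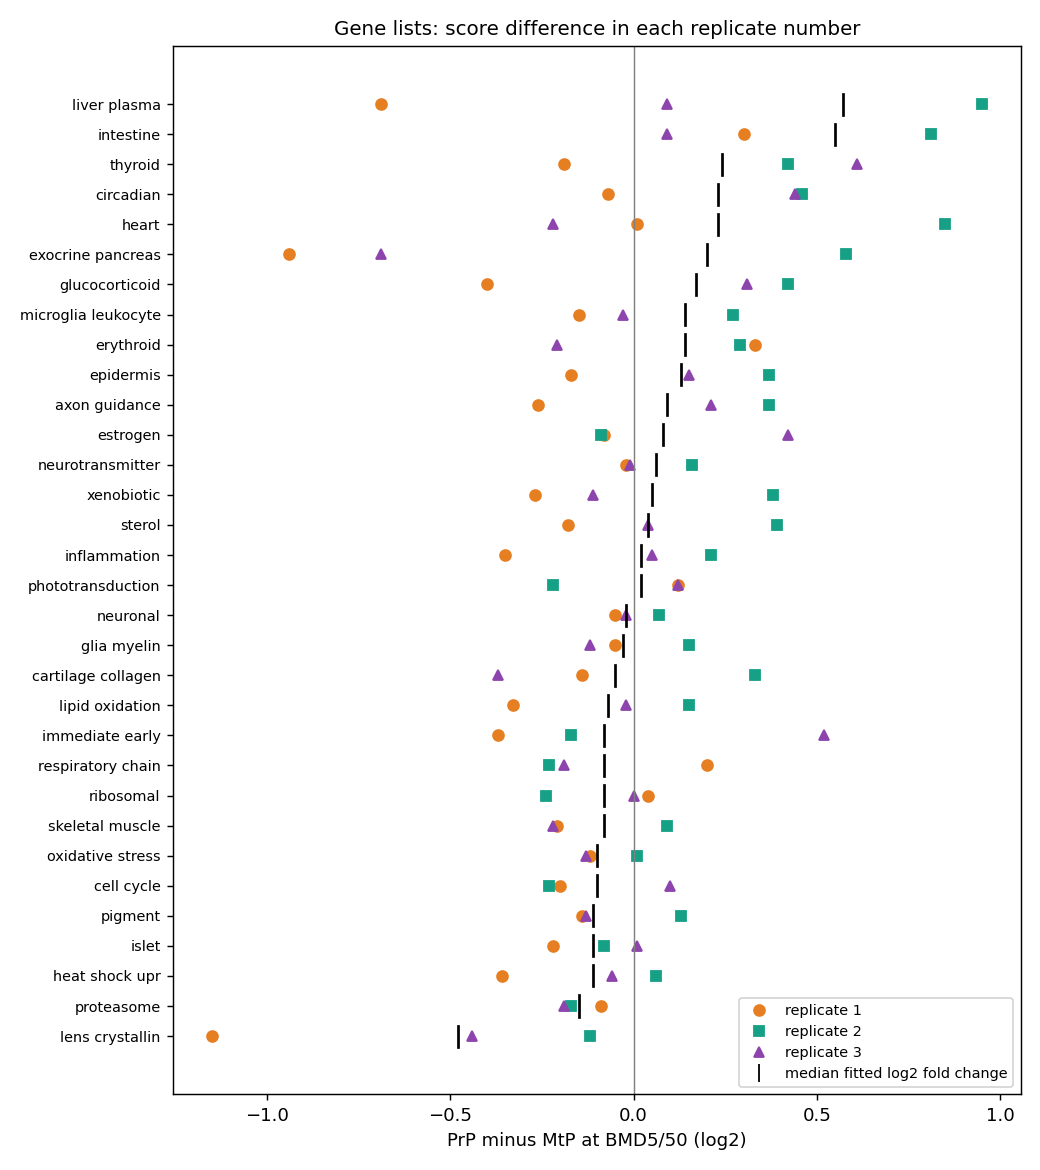
Mean log2 CPM difference of PrP minus MtP at BMD5/50 for each of 32 gene lists, in replicates 1, 2 and 3, with a bar at the median fitted log2 fold change. The proteasome points lie close together below 0, the lens points lie below 0 with replicate 1 far out, and the liver points lie on both sides of 0.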

How the data were processed

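Total RNA of whole larvae was extracted with RNAzol, per the labels' protocols. Per the file headers, the deposited values are raw read counts of each transcript. The aligner, counter and genome build were not given in the sources used here. The 60 columns of RPKM and TPM were not used. Counts of 59876 transcripts were summed to 31846 symbols, and 533 symbols joined several gene IDs. The table's coordinates and gene names were used as deposited.

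Groups and replicate numbers came from sample titles. The test was the quasi-likelihood test of edgeR 4.0.16 (with limma 3.58.1 and R 4.3.3), fitted to all 30 libraries in 10 group means after TMM scaling and filterByExpr (minimum count 10), with Benjamini-Hochberg adjustment over the 18543 genes left. Errors are standard errors of the fit. Only the main edgeR fit was tried on simulated counts with known changes, which held no replicate effect. The other fits, the lists and the pairing were not tried in this way. Alternatives were RLE scaling, no filter, a replicate block, fits of the 2 groups only, DESeq2 1.42.0, sums per gene ID, libraries numbered 2 and 3, and leaving out each library. Scores are means of log2 CPM (prior count 2). With 3 libraries a side an exact permutation p can be no smaller than 0.1, and none was computed. Nothing says that replicates came from separate clutches, so the p-values reflect the spread of these samples alone, which may be technical. Deviations of same-numbered PrP and MtP libraries from their group means correlated across genes at 0.474, 0.303 and 0.299. All were over 0.1, so the numbers were taken to pair them. The main fit left the replicate number out, so its p-values, errors and intervals do not use this pairing. PrP replicate 2 with MtP replicate 3 (0.145) and PrP replicate 3 with MtP replicate 2 (0.126) were over 0.1 as well. The other unlike-numbered pairs were negative. This limit thus does not establish that replicates 2 and 3 pair by number.

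The comparison, the 32 gene lists and the genes named were chosen with earlier results of these data known. The rule names genes past adjusted p of 0.05 (15 a direction), past it with the block (10 a direction), the 3 members of each list with the smallest p, the 8 genes a direction with the smallest p at a mean of at least 5 CPM where few pass, and 21 sentinel genes, of which 19 were tested. The threshold passed no gene, so the remaining parts apply, and list members are given where the list is described.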

Additional observations from a re-analysis of the deposited data

How the results depend on the processing

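The counts of genes past the adjusted threshold were 0 for PrP against MtP and for each compound against Control under every alternative run, those that left out 1 library each included. The difference between labels was refitted with RLE scaling, no filter and the replicate block only, with 0 genes in each. The smallest adjusted p for PrP against MtP was 0.134 in edgeR, with libraries numbered 2 and 3 alone. There 1877 of 18855 genes tested had an unadjusted p under 0.05. Fits of the 2 groups only gave 210 of 17007 genes, or 614 with the replicate block. The replicate block changed no call. Leaving out a library gave 347 to 1202 genes under that unadjusted threshold. Of 993 gene values under other settings 982 kept their direction, and 11 in 6 genes did not. With the replicate block ces2a was at −0.37 and prss1 at −0.29 on the log2 scale. In the fit of the 2 groups with the block ces2a was at −0.48, ces2b at −0.04, prss1 at −0.3 and mylpfa at 0.02. For il1b the values were 0.0 with RLE, 0.01 with the block, 0.02 with libraries numbered 2 and 3 and 0.0 with DESeq2, and mmp13a was at 0.08 with libraries numbered 2 and 3. The cause was not tested. Leaving out a library turned the fold change of 83 of 128 named genes or moved it by over 1.5 times, and 45 stayed within that limit. In that series, log2 fold changes ran from −0.48 to 4.08 for nppa, −0.47 to 0.04 for gfap, −0.05 to 0.11 for ache, −0.27 to 0.38 for cyp1a and −1.33 to 0.54 for ces2a. They ran from −0.73 to 0.53 for ces2b, −0.85 to 0.95 for ces3, −0.41 to 0.22 for sult1st1, −0.4 to 1.09 for fabp10a and −1.69 to 1.11 for prss1. They also ran from −0.7 to 1.79 for nr1i2, −0.07 to 1.6 for apoba, −0.33 to 2.62 for myl7, −0.58 to 2.0 for col4a2 and −1.34 to 1.22 for col4a1. Ranges were −0.4 to 1.03 for hbae5, −0.16 to 0.77 for grn2, −0.7 to 1.24 for cpa4 and −1.64 to 1.16 for cela1.5. The others ran from −0.78 to 1.51 for fabp2, −0.13 to 0.5 for krt4, −0.38 to 0.17 for mylpfa, −0.35 to 0.23 for il1b and −0.35 to 0.04 for rho. Among list medians, libraries numbered 2 and 3 gave −0.1 for neuronal, −0.2 for phototransduction and −0.22 for proteasome genes, and leaving out a library moved 22 of 192 medians beyond the spread between replicate numbers. The medians ran from −0.15 to 0.05 for neuronal, −0.05 to 0.15 for neurotransmitter, −0.1 to 0.23 for microglia leukocyte, −0.29 to 0.15 for phototransduction and −0.49 to 1.04 for liver plasma. Further medians ran from −1.7 to 0.86 for exocrine pancreas, −0.17 to 0.02 for islet, −0.16 to 0.82 for intestine, −0.13 to 0.5 for epidermis and −0.38 to 0.18 for skeletal muscle. Lastly, medians ran from −0.34 to 0.44 for heart, −0.44 to 0.19 for cartilage collagen, −0.17 to 0.36 for erythroid, −0.22 to 0.0 for oxidative stress and −0.21 to −0.1 for proteasome. With 3 libraries a group, differences within the median half-width of 0.526 log2 units could not be told from 0 for a typical gene.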
